A study of Mus musculus with 19 samples.

Results

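Actin, its monomer-binding proteins, the factors that nucleate, cap, crosslink and disassemble its filaments, nonmuscle myosin II and the small GTPases that control them form the machinery by which microglia extend processes, change shape and migrate. The transcripts of 45 such genes were followed in sorted retinal microglia. Of the 27299 genes of the deposited table, these 45 were picked by name from textbook roles, without a threshold on any value. Earlier results of these data were known when they were picked. They fall into 9 roles: monomers and monomer binding, filament turnover, the Arp2/3 complex, capping, nucleation promotion and elongation, crosslinking and bundling, myosin II, linkers to membrane and adhesions, and small GTPases with DOCK exchange factors.

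As background, actin monomers are held ready by thymosins and profilin, and are added at the fast-growing ends of filaments. The Arp2/3 complex starts a new filament as a branch on an existing one when WASP and WAVE proteins, under the GTPases CDC42 and RAC, switch it on, while capping proteins end growth and cofilin severs old filaments. Myosin II pulls on filaments under control of RHOA, and talin, vinculin and the ERM proteins (ezrin, radixin, moesin) tie them to integrins and to the plasma membrane. Resting microglia are ramified and constantly move their processes, and activated microglia become rounder and can migrate.

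The groups were 6 samples of microglia isolated 3 days after a laser lesion (CNV d3), which breaks the membrane under the retina and sets off choroidal neovascularization, and 6 samples from unlasered control mice. According to the labels the mice were C57BL/6J aged 8 weeks, and the cells of both groups were sorted as CD45+CD11b+CX3CR1+Ly6C-Ly6G-, while the methods of the study name Cx3cr1 GFP/+ mice, which carry GFP in place of 1 copy of the fractalkine receptor gene, and cells low for CD45. Lasered eyes had 6 burns each, and per the methods only the central retina, which holds the lesions, was used. The labels name no separate animals, so the p-values measure only the spread among these samples.

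The CNV d3 samples had 23532260 to 29523018 reads on genes and the control samples 10963178 to 22335233. Marker genes of microglia were abundant in every sample and made up 5.81% to 6.43% of the counts in control and 3.21% to 4.75% in CNV d3, with 7 of 9 of them lower in CNV d3. Of 12 monocyte markers 5 were higher in CNV d3, and their summed level was 1477 to 5306 normalised counts against 405 to 1366 in control, at most 0.0252% of all counts. All 9 proliferation markers were higher, at 9090 to 22422 normalised counts against 97.4 to 1134. The defining smooth muscle genes *Acta2* and *Myh11* had at most 16.1 and 19.2 normalised counts in any sample. Of 7 mural markers 2 were higher, *Cspg4* from a mean of 0.544 to 224 normalised counts and *Tagln* from 0.169 to 4.95. The mural list summed to 6.09 to 51.2 normalised counts in control and 103 to 373 in CNV d3. The neutrophil, lymphocyte and fibroblast lists each summed to at most 30.4 in any sample. Of 5 measured endothelial markers *Kdr* was higher (list sum 243 to 646 in control, 386 to 820 in CNV d3), and of 6 Mueller glia and astrocyte markers *Vim* was higher and *Slc1a3* lower (6846 to 9902 and 8010 to 8985). None of 8 photoreceptor markers was called (385 to 4503 and 387 to 7362). The part of these cells in the results was not tested. The Y-linked gene *Ddx3y* had no read in the control samples and in CNV d3 replicates 1, 2 and 3. The female transcript *Xist* stood at 6522 to 9795 normalised counts in control and at 3116 to 5245 in these 3 CNV d3 samples. CNV d3 replicates 4, 5 and 6 had 1239 to 1450 normalised counts of *Ddx3y* and at most 0.866 of *Xist*. Such a pattern marks male cells, and no control sample showed it, so the comparison was also made with the other 3 CNV d3 samples alone and with *Ddx3y* as a second term.

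The sequences below are the start regions of 4 of the genes. Serum response factor, a transcription factor known to control many actin genes, binds a CArG box. These 4 are the members with such a box, on either strand, in a start region (250 bases before to 50 after a RefSeq start). The box is in capitals. Start regions from RefSeq on GRCm38.p6 were matched for 41 of the 45 genes (51 regions), and 4 of these regions held the box, against 1.63% of 32851 regions of the same length over all genes. The box begins 90 bases upstream of the start in *Actg1* (chr11:120348446-120348745, minus strand), 50 in *Myl6* (chr10:128492960-128493259, minus strand), 227 in *Vcl* (chr14:20929148-20929447, plus strand) and 250 in *Arpc4* (chr6:113377863-113378162, plus strand). The *Myl6* region lies inside the gene as annotated by Gencode (chr10:128490860-128494145, minus strand), downstream of the gene start given there. A match describes letters only and shows no binding. Of these 4 genes, *Actg1*, *Myl6* and *Arpc4* rose in CNV d3 and *Vcl* did not pass, as described further on. Of all 41 members with a matched region, 24 were higher, and the part of the box in the changes was not tested. Of 87 other actin genes with a region, 5 held a box (*Cnn2*, *Lima1*, *Myl9*, *Myo1e* and *Srf*). *Cnn2* and *Myo1e* were higher in CNV d3, and *Lima1*, *Myl9* and *Srf* were not called. None of the 3 measured genes of the serum response factor pathway was called, with 1 at an unadjusted p under 0.05.
Actg1: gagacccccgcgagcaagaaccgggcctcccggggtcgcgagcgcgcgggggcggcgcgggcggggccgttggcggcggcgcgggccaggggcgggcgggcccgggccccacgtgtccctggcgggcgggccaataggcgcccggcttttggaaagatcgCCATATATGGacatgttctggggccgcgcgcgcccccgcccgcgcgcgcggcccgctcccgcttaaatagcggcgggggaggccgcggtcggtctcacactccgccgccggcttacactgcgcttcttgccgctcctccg
Myl6: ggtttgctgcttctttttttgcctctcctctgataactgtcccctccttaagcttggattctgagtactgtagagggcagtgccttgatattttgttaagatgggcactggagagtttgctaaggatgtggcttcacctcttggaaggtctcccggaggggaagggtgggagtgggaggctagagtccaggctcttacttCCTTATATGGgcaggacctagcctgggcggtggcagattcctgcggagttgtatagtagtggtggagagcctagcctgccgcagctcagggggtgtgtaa
Vcl: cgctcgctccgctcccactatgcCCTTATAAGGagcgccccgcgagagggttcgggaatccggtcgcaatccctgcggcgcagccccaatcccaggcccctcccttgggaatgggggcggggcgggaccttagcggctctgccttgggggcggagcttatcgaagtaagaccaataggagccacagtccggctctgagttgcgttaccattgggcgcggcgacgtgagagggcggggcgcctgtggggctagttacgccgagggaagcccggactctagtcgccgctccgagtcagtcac
Arpc4: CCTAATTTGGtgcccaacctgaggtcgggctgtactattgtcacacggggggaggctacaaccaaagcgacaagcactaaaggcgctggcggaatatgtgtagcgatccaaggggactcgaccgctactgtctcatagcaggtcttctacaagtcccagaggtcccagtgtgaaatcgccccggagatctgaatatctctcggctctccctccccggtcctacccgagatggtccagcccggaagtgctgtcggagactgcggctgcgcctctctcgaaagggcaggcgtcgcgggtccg

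Of the 45 genes, 27 were higher in CNV d3 and 3 were lower at an adjusted p under 0.05 (limma on log2(normalised counts + 1), Benjamini-Hochberg over all genes), while 15 did not pass. Normalised counts are reads on a gene divided by the size factor of the sample, which corrects for depth. The 27 higher genes were 60% of the members, against 8.29% of all genes tested and 22.0% of the 3877 genes with a mean of at least 1000 normalised counts, a level that 40 of the 45 exceeded. The 3 lower genes, *Evl*, *Rhob* and *Dock8*, were 6.67%, against 4.57% of all genes and 15.1% of the abundant ones. The median log2 fold change (log2FC) of the members was 0.45, beside 0.15 for all genes and 0.06 for the abundant genes. In bulk RNA, a higher level in each cell and a larger share of cells with a high level cannot be told apart.

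The changes were broad and moderate. Of the 27 higher genes, 25 changed by less than 2-fold, and the log2FC ran from 0.24 for *Rac1* to 1.43 for *Myh9*. No member was a DEG by the thresholds of the study (absolute log2FC above 1.5 and adjusted p under 0.05) with limma or edgeR, where 3.91% of all genes were higher DEG and 1.07% lower DEG with limma, and DESeq2 called 1 member, *Actn1*. Before adjustment 34 of the 45 members had a p under 0.05, against 25.2% of all genes and 55.5% of the abundant ones. In 19 of the 45 members, all of them among the 27 higher genes, every CNV d3 sample lay above every control sample. This held for 4.64% of all genes and 13.9% of the abundant ones. In 3 members, *Evl*, *Dock8* and *Wasf2*, every CNV d3 sample lay below, against 2.83% of all genes and 9.47% of the abundant ones. With CNV d3 replicates 1, 2 and 3 alone, 17 members were higher and 1 was lower, against 3.74% and 1.98% of all genes, and all 30 called members kept their sign. The 12 that lost their call were *Tmsb4x*, *Coro1b*, *Actr2*, *Arpc4*, *Wipf1*, *Evl*, *Flna*, *Ezr*, *Msn*, *Rac1*, *Rhoa* and *Rhob*, with adjusted p from 0.0579 to 0.321. This fit held 3 CNV d3 samples in place of 6 and so had less power. The log2FC was larger there for *Tmsb4x*, *Coro1b*, *Arpc4*, *Wipf1*, *Ezr*, *Rac1* and *Rhoa*. It was smaller in size for *Actr2*, *Evl*, *Flna*, *Msn* and *Rhob*. Between CNV d3 samples with and without *Ddx3y*, no member differed at an adjusted p under 0.05. With the *Ddx3y* term 22 were higher and 2 were lower, against 4.91% and 2.68%.

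**Figure D1:**
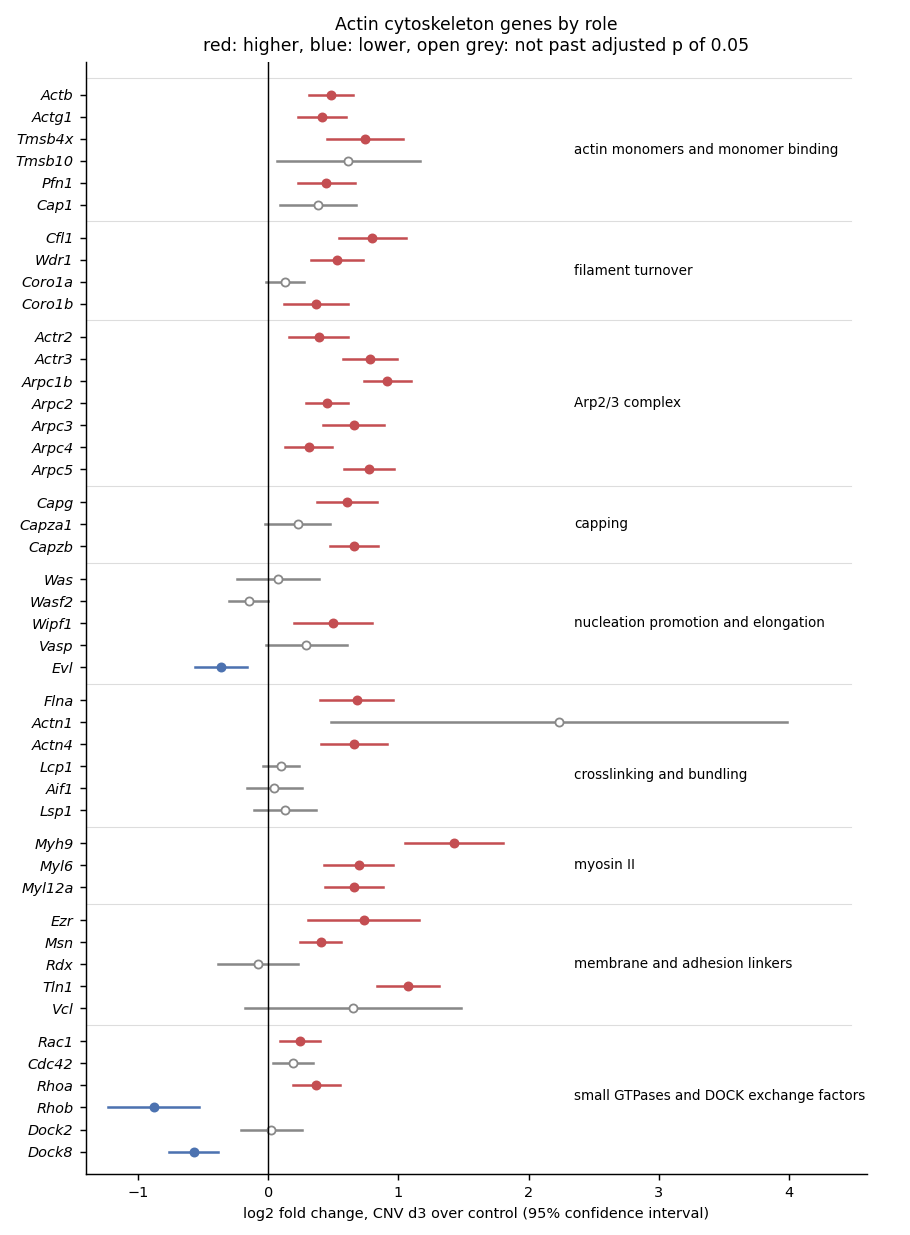
Log2 fold change of each gene in CNV d3 over control with its 95% confidence interval from limma (horizontal axis), grouped by role, in 6 samples per group. Red points passed an adjusted p of 0.05 as higher, blue as lower, and open grey points did not pass; all 7 Arp2/3 genes and all 3 myosin II genes are red, and *Rhob*, *Dock8* and *Evl* are the blue points.

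Together the 45 genes held 3.32% ± 0.165 of the normalised counts of control samples and 4.78% ± 0.629 of those of CNV d3 samples (SD, n = 6 each). The lowest CNV d3 sample, replicate 4, had 4.15% and the highest control sample, replicate 3, had 3.61%, so the groups did not overlap. Most of the rise was carried by *Actb* and *Tmsb4x*, and the other 43 genes together went from 1.48% ± 0.0294 to 1.91% ± 0.154 (SD, n = 6 each). The CNV d3 samples differed among themselves more than the control samples did. Replicates 2, 3 and 6 had 5.17%, 5.66% and 5.14%, and replicates 1, 4 and 5 had 4.20%, 4.15% and 4.35%. The summed monocyte markers were 3032, 5306 and 4593 normalised counts in the first 3 of these samples and 1477, 1703 and 3447 in the others, and the microglia markers took 3.77%, 3.21% and 3.52% of the counts against 4.75%, 4.70% and 4.13%. The part of these markers in the level of the actin genes was not tested.

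**Figure D2:**
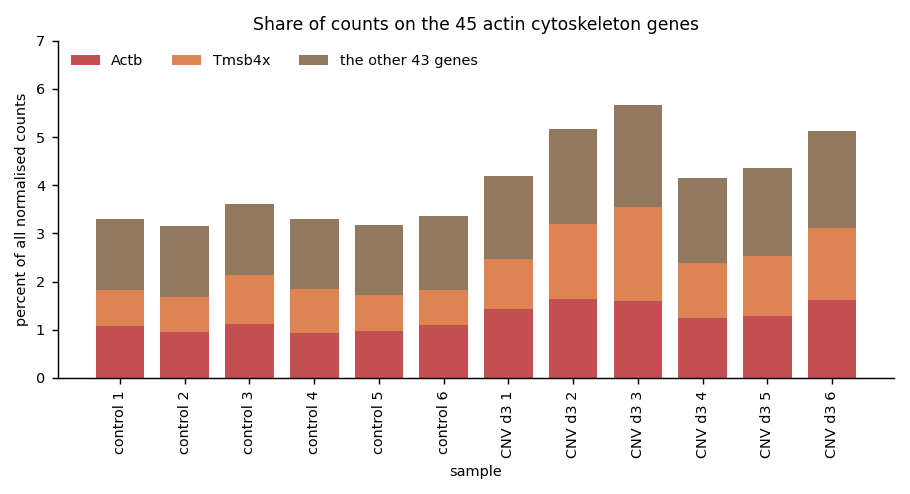
Share of all normalised counts, in percent, on *Actb*, *Tmsb4x* and the other 43 genes in each of the 12 samples, stacked from 0. All 6 CNV d3 samples, at 4.15% to 5.66%, stand above the control samples, at 3.15% to 3.61%.

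*Actb* (ENSMUSG00000029580, chr5:142903115-142906754, minus strand), which encodes the main cytoplasmic actin, had 204516 to 245257 normalised counts in control with a median of 227323, and 265848 to 351140 in CNV d3 with a median of 324941. All 6 CNV d3 samples were above all control samples, and CNV d3 replicates 4 and 5 were the lowest of them. It rose by a log2FC of 0.48 ± 0.08 (SE) with an adjusted p of 0.00097 (limma), and had the highest mean count of all genes in CNV d3, a rank that is not corrected for gene length. The second cytoplasmic actin gene, *Actg1*, rose by a log2FC of 0.41 from a mean of 3083 to 4099 normalised counts, also without overlap. Per kilobase of exon *Actb* stood at 83933 normalised counts in control and *Actg1* at 1160. The proteins differ by few residues and reads of 50 bases that match several places in the genome are left out by default counting, so the split between both genes is uncertain.

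*Tmsb4x* (ENSMUSG00000049775, chrX:167207093-167209315, minus strand), which encodes thymosin beta 4, the main buffer of actin monomers, had 156650 to 225732 normalised counts in control with a median of 162646, and 222966 to 409041 in CNV d3 with a median of 294710. Only CNV d3 replicate 1 lay inside the control range, just under control replicate 3. The log2FC was 0.74 ± 0.14 (SE) with an adjusted p of 0.0021 (limma), and the adjusted p was 0.0606 with CNV d3 replicates 1, 2 and 3 alone. *Pfn1*, which encodes profilin and loads monomers onto filament ends, rose by a log2FC of 0.45. The related thymosin gene *Tmsb10* (log2FC 0.61 ± 0.26, adjusted p = 0.143) and *Cap1*, which helps to recycle monomers (0.38 ± 0.14, adjusted p = 0.0872), did not pass in limma. With DESeq2 their adjusted p were 0.0459 and 0.0627. *Tmsb10* had 1089 normalised counts in CNV d3 replicate 3 and 355 in replicate 1.

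Of the 4 turnover genes 3 rose. *Cfl1* (ENSMUSG00000056201, chr19:5490455-5495201, plus strand), which encodes the severing factor cofilin, had 9084 to 11428 normalised counts in control with a median of 10095, and 13663 to 22896 in CNV d3 with a median of 18285. No sample overlapped, and CNV d3 replicates 1 and 4 were the lowest of their group. The log2FC was 0.80 ± 0.12 (SE) with an adjusted p of 0.00054 (limma). *Wdr1*, a partner of cofilin in disassembly, rose by a log2FC of 0.53 without overlap. The most abundant gene of the role per kilobase, *Coro1a*, which encodes a coronin of white blood cells, had 18137 to 20652 normalised counts in control and 18875 to 23379 in CNV d3, with a log2FC of 0.13 (95% confidence interval -0.02 to 0.28, adjusted p = 0.282, limma). *Coro1b* passed narrowly, with a log2FC of 0.36 and an adjusted p of 0.0499 in limma, and kept its call in 3 of the 12 fits that each left out 1 sample.

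All 7 member genes of the Arp2/3 complex were higher in CNV d3, in 5 of them without overlap. Of the other subunit genes of the complex, *Arpc1a* was higher (log2FC 0.78) and *Arpc5l* had a mean of 1751 normalised counts in control and 1733 in CNV d3 (log2FC -0.01, adjusted p = 0.968, limma). The largest rise was that of *Arpc1b* (ENSMUSG00000029622, chr5:145114215-145130705, plus strand), the form of the ARPC1 subunit known from blood cells. It had 6055 to 7331 normalised counts in control with a median of 6893, and 11237 to 14684 in CNV d3 with a median of 12545. Every CNV d3 sample was far above the highest control sample, and the log2FC was 0.91 ± 0.09 (SE) with an adjusted p of 1.47e-05 (limma), the smallest of the 45 genes. The actin-related *Actr3*, *Arpc5* and *Arpc3* followed with log2FC of 0.78, 0.77 and 0.66. The most abundant subunit, *Arpc2* (ENSMUSG00000006304, chr1:74236084-74268209, plus strand), had 10108 to 12587 normalised counts in control and 14156 to 17520 in CNV d3, and rose by 0.45 ± 0.08 (SE) on the log2 scale with an adjusted p of 0.0011 (limma). The rise was smaller for *Actr2* (log2FC 0.39) and *Arpc4* (0.31), whose groups overlapped and which lost their call with CNV d3 replicates 1, 2 and 3 alone (adjusted p of 0.321 and 0.125, limma). Per kilobase of exon the subunits stood in control at 5507 normalised counts for *Arpc2*, 3643 for *Arpc4*, 2691 for *Arpc5*, 1459 for *Actr3*, 1321 for *Arpc1b*, 999 for *Actr2* and 961 for *Arpc3*. These lengths take in the exons of all annotated transcripts, so the order between near neighbours is rough.

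Among the capping genes *Capzb* (ENSMUSG00000028745, chr4:139192899-139291818, plus strand), the beta subunit of the capping protein at the fast-growing end, had 9178 to 11648 normalised counts in control with a median of 9659, and 14167 to 18458 in CNV d3 with a median of 15496. The groups were clearly apart, and the log2FC was 0.66 ± 0.09 (SE) with an adjusted p of 0.00018 (limma). *Capg*, a calcium-dependent capping protein of macrophages, rose by 0.60 from a mean of 3021 to 4583 normalised counts, without overlap. Of the alpha subunits *Capza1* had a log2FC of 0.23 (95% confidence interval -0.02 to 0.47) and did not pass, and *Capza2*, which is not among the 45 genes, rose by 0.29 from a mean of 35541 to 43577 normalised counts (adjusted p = 0.0174, limma).

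Of the 5 genes that switch Arp2/3 on or feed growing ends, 1 rose and 1 fell, and their summed share of all counts was 0.0557% in control and 0.0554% in CNV d3. *Evl* (ENSMUSG00000021262, chr12:108554720-108688516, plus strand), an elongation factor of the Ena/VASP family, had 2625 to 3448 normalised counts in control with a median of 3121, and 2094 to 2565 in CNV d3 with a median of 2385. All CNV d3 samples were below all control samples, and the log2FC was -0.36 ± 0.09 (SE) with an adjusted p of 0.0179 (limma), or 0.121 with CNV d3 replicates 1, 2 and 3 alone. *Wasf2*, which encodes the WAVE2 protein, had the highest mean count of the role, 5130 to 6003 normalised counts in control and 4473 to 5088 in CNV d3. Its groups did not overlap either, and the log2FC was -0.15 ± 0.07 (SE) with an adjusted p of 0.201 (limma). With DESeq2 the adjusted p of *Wasf2* was 0.0369 at the same log2FC of -0.15. *Wipf1*, a partner that stabilises WASP, rose by a log2FC of 0.50 with an adjusted p of 0.0292 (limma), or 0.176 with CNV d3 replicates 1, 2 and 3 alone, and kept its call in 6 of the 12 fits without 1 sample. *Was* (0.07) and *Vasp* (0.29) did not pass.

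In the crosslinking role *Flna* and *Actn4* rose, and 4 genes did not pass. *Actn4* (ENSMUSG00000054808, chr7:28893248-28962340, minus strand), a nonmuscle alpha-actinin that ties filaments into bundles, had 2123 to 3154 normalised counts in control with a median of 2582, and 3547 to 5366 in CNV d3 with a median of 4049. The groups did not overlap, CNV d3 replicate 6 stood well above the others, and the log2FC was 0.66 ± 0.12 (SE) with an adjusted p of 0.0020 (limma). *Flna*, the filamin that links filaments into nets, rose by 0.68 without overlap, with an adjusted p of 0.0661 in the CNV d3 replicates 1, 2 and 3 alone. The other nonmuscle alpha-actinin, *Actn1*, was rare, with 0 to 49.2 normalised counts in control and 38.9 to 123 in CNV d3. Control replicate 3 had no read, which allows a level of up to 3.38 normalised counts at 3 reads, a floor that covers counting error only. The log2FC of 2.23 ± 0.82 (SE, adjusted p = 0.0929, limma) was 1.44 without that sample (adjusted p = 0.0368, limma), 1.49 with a pseudocount of 10 and 1.73 with DESeq2 (adjusted p = 0.0233).

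The bundling genes best known from white blood cells and microglia did not pass the test. *Lcp1* (ENSMUSG00000021998, chr14:75131101-75230842, plus strand), which encodes L-plastin, had the highest mean count of the role, with 30160 to 32438 normalised counts in control and 29923 to 38422 in CNV d3, and had a log2FC of 0.10 (95% confidence interval -0.04 to 0.24). *Aif1*, which encodes IBA1, the protein most used to stain microglia, had 11542 to 18001 normalised counts in control with a median of 13409, and 12654 to 15586 in CNV d3 with a median of 14168. All CNV d3 samples lay inside the control range, and the 95% confidence interval of the log2FC, 0.04, ran from -0.17 to 0.26. *Lsp1*, a leukocyte actin-binding protein, had a log2FC of 0.13 (95% confidence interval -0.11 to 0.36).

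All 3 myosin II genes rose without overlap, and their summed share of counts went up 2.05-fold, from 0.0268% to 0.0550%, the highest ratio of the 9 roles. *Myh9* (ENSMUSG00000022443, chr15:77760587-77842175, minus strand), the heavy chain of nonmuscle myosin IIA, had 1442 to 2935 normalised counts in control with a median of 2311, and 4772 to 8657 in CNV d3 with a median of 5731. Every CNV d3 sample was above every control sample, with replicate 6 the highest. It rose by a log2FC of 1.43 ± 0.18 (SE), or 2.69-fold, with an adjusted p of 0.00012 (limma), and by 1.36 in CNV d3 replicates 1, 2 and 3 alone. Without control replicate 6, the shallowest library, the log2FC was 1.51 and thus past the DEG threshold. The light chains *Myl6* and *Myl12a* rose by 0.69 and 0.66. Exons of *Myl12a* overlap *Myom1* and a separate annotated gene that also carries the name *Myl12b*, so its count is uncertain. The near copy *Myl12b* itself (chr17:70973133-70990890) does not overlap *Myl12a* (chr17:70993656-71002878).

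**Figure D3:**
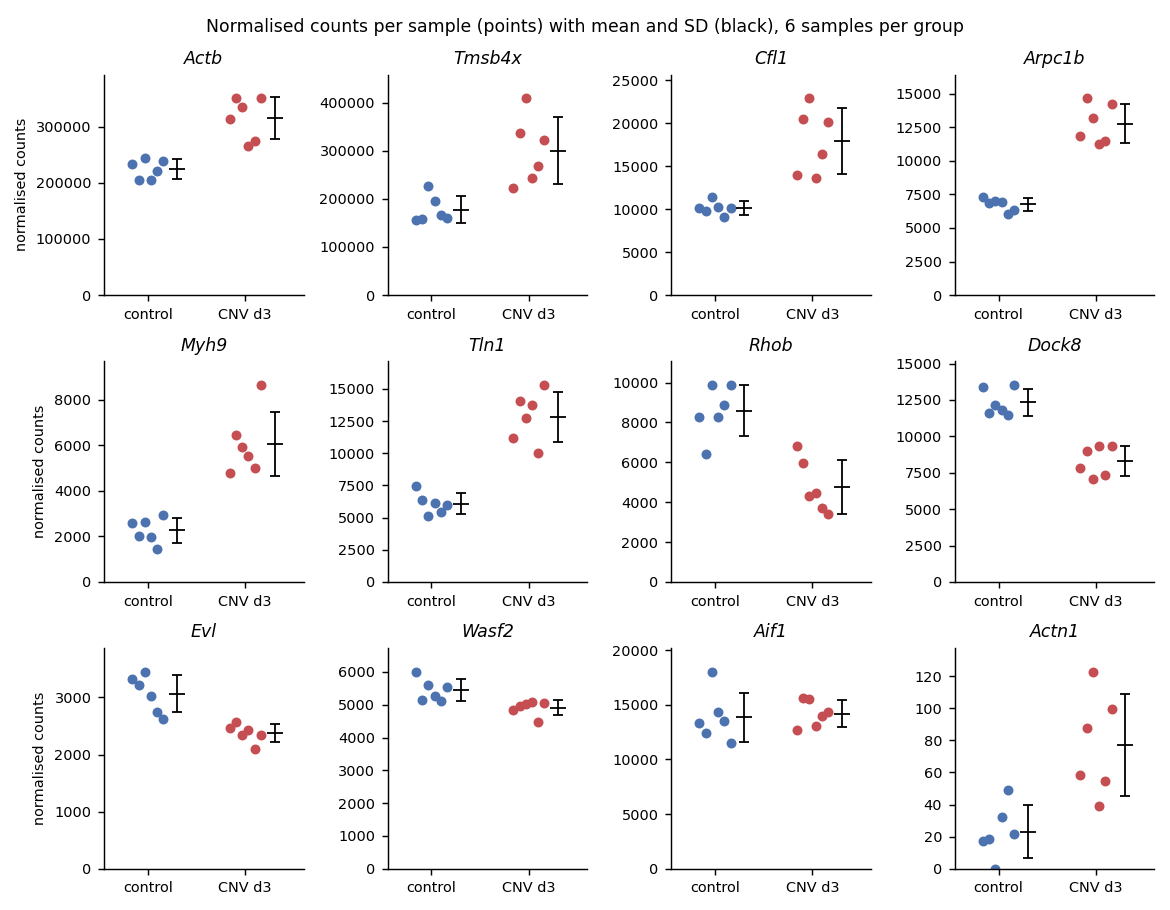
Normalised counts (vertical axes, linear from 0) of 12 genes in each control and CNV d3 sample, with the mean and SD of 6 samples in black. *Actb*, *Cfl1*, *Arpc1b*, *Myh9* and *Tln1* are higher in every CNV d3 sample, *Dock8*, *Evl* and *Wasf2* are lower in every one, and *Aif1* lies within the control range of 11542 to 18001.

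Of the linkers, *Tln1*, *Ezr* and *Msn* rose. *Tln1* (ENSMUSG00000028465, chr4:43531519-43562691, minus strand), which encodes talin 1, the protein that couples integrins to actin, had 5132 to 7477 normalised counts in control with a median of 6068, and 10039 to 15298 in CNV d3 with a median of 13227. The groups were far apart, and the log2FC of 1.07 ± 0.11 (SE, adjusted p = 3.71e-05, limma) was the second of the called members in size after *Myh9*. *Msn* (ENSMUSG00000031207, chrX:96096042-96168552, plus strand), which encodes moesin, had 22197 to 28988 normalised counts in control and 31022 to 37511 in CNV d3, a log2FC of 0.40 ± 0.07 (SE, adjusted p = 0.0023, limma) without overlap. Its relatives were much less abundant per kilobase, with 209 normalised counts for *Ezr* and 659 for *Rdx* against 4036 for *Msn* in control. *Ezr* rose by 0.73 with 5 of 6 CNV d3 samples above all controls and lost its call in 6 of the 12 fits without 1 sample, and *Rdx* had a log2FC of -0.08 (95% confidence interval -0.39 to 0.23). *Vcl*, which encodes vinculin, was rare and variable, at 53.2 to 278 normalised counts in control and 169 to 424 in CNV d3, and did not pass (log2FC 0.65 ± 0.39, adjusted p = 0.334, limma).

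The role of small GTPases and exchange factors moved in both directions. *Dock8* (ENSMUSG00000052085, chr19:24999534-25202432, plus strand), an exchange factor that loads CDC42 with GTP, had 11468 to 13526 normalised counts in control with a median of 11989, and 7084 to 9341 in CNV d3 with a median of 8411. All CNV d3 samples were below all control samples, and the log2FC was -0.57 ± 0.09 (SE, adjusted p = 0.00057, limma), with -0.63 in CNV d3 replicates 1, 2 and 3 alone. *Dock2*, an exchange factor for RAC, had 9587 to 15041 and 9187 to 12455 normalised counts in the groups and a log2FC of 0.02 (95% confidence interval -0.21 to 0.26).

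*Rhob* (ENSMUSG00000054364, chr12:8497661-8500009, minus strand), a short-lived endosomal relative of RHOA, had 6407 to 9874 normalised counts in control with a median of 8562, and 3383 to 6820 in CNV d3 with a median of 4378. CNV d3 replicate 1 was the one sample inside the control range, and replicates 5 and 6 were the lowest. It fell to 0.543-fold, a log2FC of -0.88 ± 0.16 (SE, adjusted p = 0.0023, limma). In CNV d3 replicates 1, 2 and 3 alone the log2FC was -0.60 with an adjusted p of 0.114 (limma). The mean was 5693 normalised counts in these 3 samples and 3841 in those with *Ddx3y*. The 2 sets overlapped, with 4297 in replicate 3 and 4459 in replicate 4, and the difference between them did not pass. *Rhoa* rose by 0.37 without overlap and *Rac1* by 0.24, with adjusted p of 0.0623 and 0.0585 (limma) in CNV d3 replicates 1, 2 and 3 alone. *Rac1* kept its call in 6 of the 12 fits without 1 sample. *Cdc42* (ENSMUSG00000006699, chr4:137319696-137357720, minus strand), the most abundant of the role, had 28289 to 32922 normalised counts in control and 30652 to 41056 in CNV d3, with 5 of 6 CNV d3 samples above all controls, and did not pass (log2FC 0.19 ± 0.07 SE, adjusted p = 0.114, limma).

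**Figure D4:**
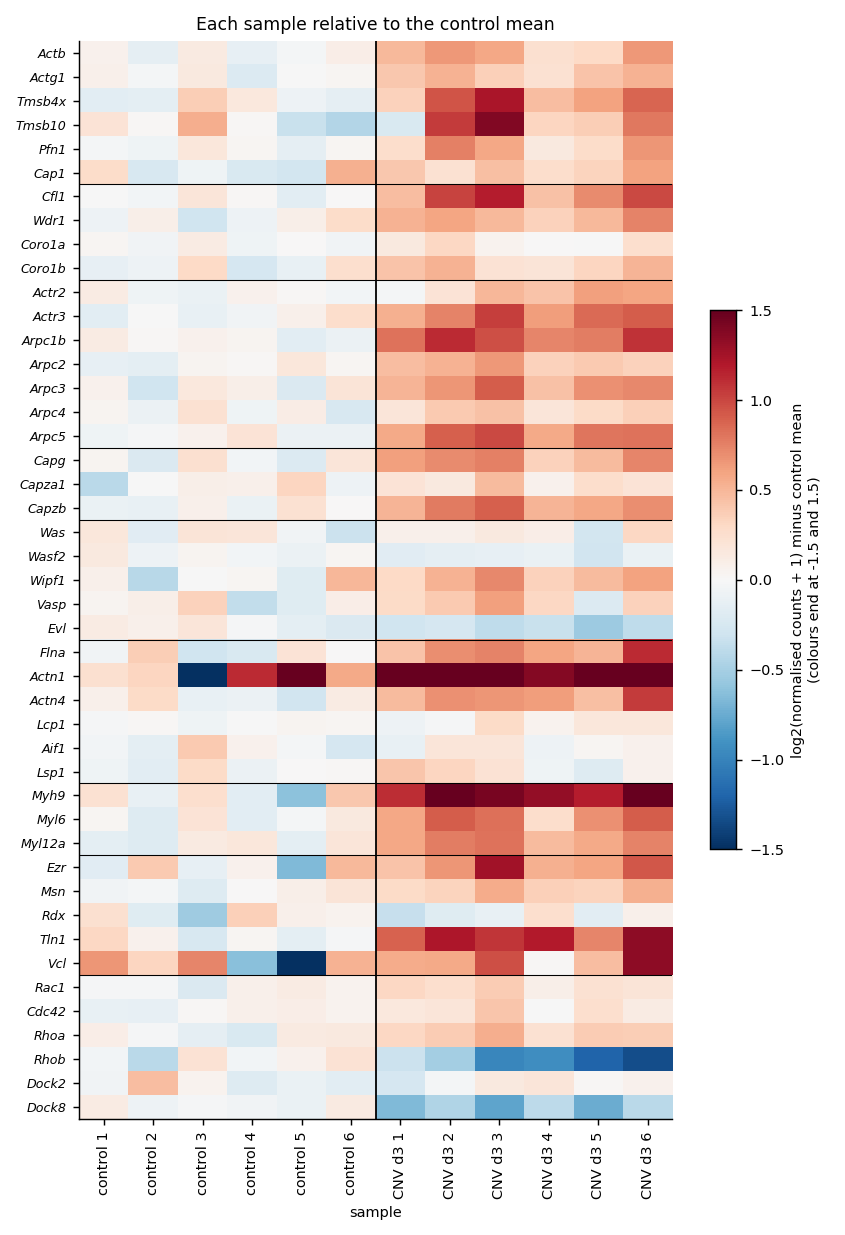
Each of the 45 genes (rows, in the order of roles) in each of the 12 samples (columns), as log2(normalised counts + 1) minus the control mean, with colours ending at -1.5 and 1.5. Red fills the Arp2/3 and myosin II blocks in the CNV d3 columns except *Actr2* in CNV d3 replicate 1, at 5103 normalised counts against a control mean of 5197, *Rhob* and *Dock8* are blue there, and CNV d3 replicates 2, 3 and 6 are the strongest columns for *Tmsb4x* and *Cfl1*.

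Ratios of related genes within a sample do not depend on how samples are scaled, apart from 1 normalised count that was added to both genes first. Of 10 pairs compared, 3 shifted at a Benjamini-Hochberg adjusted p under 0.05 (two-sided exact permutation test over 924 labellings, for which the smallest p is 0.0022). The log2 ratio of *Rhob* to *Rhoa* went from 0.12 ± 0.26 to -1.13 ± 0.43 (SD, n = 6 each, exact p = 0.0022, adjusted 0.0108), without overlap. The ratio of *Rac2*, the GTPase of blood cells, to *Rac1* went from -1.75 ± 0.22 to -1.06 ± 0.18 (SD, n = 6 each, exact p = 0.0022, adjusted 0.0108), without overlap. The ratio of *Dock8* to *Dock2* fell by 0.60 (exact p = 0.0087, adjusted 0.0289), with control replicate 2 at -0.37 inside the CNV d3 range. With CNV d3 replicates 1, 2 and 3 alone the first 2 shifts were -1.02 and 0.71 (exact p = 0.0119, adjusted 0.0397 each) and that of *Dock8* to *Dock2* was -0.59 (exact p = 0.0476, adjusted 0.119). The ratio of *Arpc1b* to its ubiquitous form *Arpc1a* differed by 0.13 between groups, less than the SD of 0.37 in control (exact p = 0.439), and that of *Actg1* to *Actb* by -0.07 (exact p = 0.217). With CNV d3 replicates 1, 2 and 3 alone the latter was -0.14 (exact p = 0.0119, adjusted 0.0397).

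**Figure D5:**
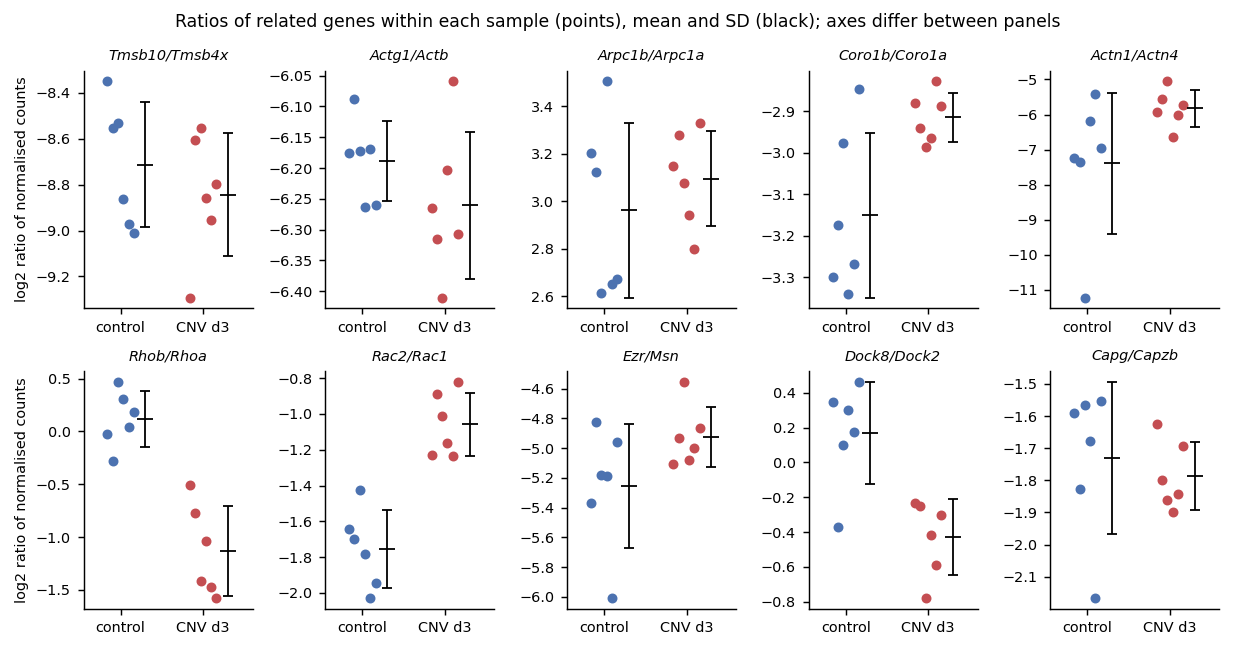
Log2 ratio of normalised counts, each with 1 added, of 10 pairs of related genes (vertical axes, which differ between panels) in each control and CNV d3 sample. The mean and SD of 6 samples are in black. The groups are apart for *Rhob*/*Rhoa* (control -0.28 to 0.47, CNV d3 -1.58 to -0.51) and *Rac2*/*Rac1*, and overlap in the other panels.

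A second list of 107 actin genes outside the 45 held 32 higher and 7 lower genes (median log2FC 0.19). The shares were 8.29% and 4.57% over all genes, and 22.0% and 15.1% over the abundant ones. Not all of the 107 were that abundant. The 5 higher genes with the smallest adjusted p were *Tpm4*, a tropomyosin that coats contractile filaments (log2FC 1.72, from a mean of 1867 to 6139 normalised counts), the scaffold *Iqgap1* (2.53, from 500.3 to 2914), *Rac2* (0.94), the integrin *Itgam* (0.72) and the coronin *Coro1c* (0.78). The 5 lower ones were *Elmo1*, a partner of DOCK proteins (-0.93, from 16287 to 8547), the bundling gene *Fscn1* (-1.06), the GTPase gene *Rhoh* (-0.58), *Abi3* of the WAVE complex (-0.63) and *Wasl* (-0.75). Of 11 other myosin and contractility genes 6 were higher and none lower, namely *Myh10*, a myosin II heavy chain, and the unconventional myosins *Myo1e*, *Myo1f*, *Myo1g*, *Myo5a* and *Myo9b*. *Myh10* was rare, with means of 54.1 normalised counts in control and 311 in CNV d3, and kept its call in 4 of the 12 fits without 1 sample. The list of WAVE complex and WASP family genes also takes in *Hcls1*, *Dbnl* and *Cttn*, which are outside these families. Of its 13 genes 4 were higher (*Cyfip2*, *Wasf1*, *Hcls1* and *Dbnl*) and 2 lower. *Cyfip2* and *Wasf1* were rare, with means of 37.3 and 0.169 normalised counts in control and 185 and 12.1 in CNV d3. They kept their call in 3 and 4 of the 12 fits without 1 sample. The abundant *Cyfip1*, *Nckap1l*, *Abi1* and *Brk1* were not called. With CNV d3 replicates 1, 2 and 3 alone, 17 of the 107 were higher and 4 lower, against 3.74% and 1.98% of all genes.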

How the data were processed

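RNA was sequenced from 6 CNV d3 and 6 control samples, of which 7 (all 6 control samples and CNV d3 replicate 4) are listed in the labels in 2 parts and were counted as 1 sample each. This layout nearly follows the groups, and its part in the results was not tested. Per the labels and the methods, the authors amplified cDNA from very little RNA with a template-switching kit, sequenced single reads of 50 cycles, checked them with FastQC 0.72, mapped them with STAR 2.7.2b to GRCm38.p6 with Gencode M25, counted them per gene with featureCounts 1.6.4 at default settings and normalised with DESeq2 1.22.2 in R 3.5.3. The deposited signal of a gene is its read count divided by the size factor of the sample. The table also holds the authors' group means, fold changes and adjusted p-values, which were not used. Default counting ignores strand and drops reads that map to several places or lie in exons of more than 1 gene. Exons of 21 of the 45 genes overlap another gene, so their counts are uncertain. Such genes include *Myl12a*, *Arpc4*, *Arpc1b* and *Cfl1*.

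Every value was a whole multiple of that of 1 read (100% within a tolerance of 0.001 in all 12 samples), so reads were recovered for edgeR 4.0.16, DESeq2 1.42.0 and limma voom. Depth gives 1 read a value of 0.739 to 1.99 normalised counts. The main test was limma 3.58.1 in R 4.3.3 on log2(normalised counts + 1), with a variance trend, no filter and no covariate, over 27299 genes. Log2FC are on that scale, and those of rare genes depend on the pseudocount. The fits were tested on simulated data. The 45 genes, the other lists and the roles were chosen with earlier results of these data known. Named in full were, for each role, the gene of highest mean, the gene of smallest adjusted p and genes that moved against the rest. Outside the 45 genes, the 5 called genes of smallest adjusted p in each direction were named. Samples with the same replicate number did not deviate together, with correlations between -0.0526 and 0.0707, and the labels give no pairing. No replicate pair agreed within counting noise (lowest chi-square divided by its degrees of freedom, 22.0). Coordinates of genes are from Gencode M21 on GRCm38. Left-out samples, other scalings, pseudocounts, filters and thinned reads were alternatives, and those by *Ddx3y* were chosen after seeing the data.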

Additional observations from a re-analysis of the deposited data

Results flagged for a closer look

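In 4 of 112 groups of 6 samples, 1 sample stood so far from its nearest neighbour that the gap passed the 95% critical value of Dixon's test. By chance this happens in about 1 in 20 groups. CNV d3 replicate 6 had 5366 normalised counts of *Actn4*, the highest of its group. Control replicate 3 had 7447 normalised counts of *Lsp1*, and control replicate 2 had 15041 of *Dock2*. The log2 ratio of *Actn1* to *Actn4* was -11.22 in control replicate 3, the sample without a read of *Actn1*, so this value rests on the added 1. The shift of this ratio between groups was 1.58 with 1 added and 0.84 with 10 added.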

How the results depend on the processing

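All 30 called genes kept their sign in each of 25 alternatives, and 16 of them also kept their call in each. The count of higher genes was 18 with no variance trend and 17 with CNV d3 replicates 1, 2 and 3 alone, where 1 gene was lower, 17 other actin genes were higher and 4 lower. The call was lost most often for *Coro1b* (15 alternatives), *Actr2* (11), *Rac1* (10) and *Ezr* (10). By the DEG thresholds 1 member passed with DESeq2 and 1 with a filter of at least 10 reads in 6 samples (*Actn1* both times), and 0 to 1 when 1 sample was left out (*Myh9* without control replicate 6). DESeq2 called 29 members higher and 4 lower, with *Wasf2* among the lower ones, and it called 11 other actin genes lower. Genes near 0 changed sign: the log2FC of *Aif1* ran from -0.0053 to 0.12 and that of *Dock2* from -0.0154 to 0.11 when 1 sample was left out, and that of *Dock2* was -0.0436 without the samples with *Ddx3y* or with a *Ddx3y* term. The cause was not tested. The alternatives moved the median log2FC of all genes between -0.0133 and 0.23, that of the abundant genes between 0.0447 and 0.0880, and that of the members between 0.40 and 0.51.

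With the replicate number as a block, 25 members were higher and 3 lower, although the numbers share no pairing that the labels state. The paired ratio shifts were -1.25 for *Rhob* to *Rhoa*, 0.70 for *Rac2* to *Rac1* and -0.60 for *Dock8* to *Dock2*, with adjusted p of 0.156, 0.156 and 0.208. The paired test cannot go below an exact p of 0.0313 before adjustment over 10 pairs. The shift of *Dock8* to *Dock2* was -0.59 with CNV d3 replicates 1, 2 and 3 alone (exact adjusted p = 0.119). Depth limits statements on *Actn1* and *Vcl*, the rarest of the 45 genes.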

Other observations

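Among 14 tubulin and microtubule genes, 8 were higher in CNV d3 and 2 lower (limma, adjusted p under 0.05), against 8.29% and 4.57% of all genes. *Stmn1*, which encodes stathmin, a binder of free tubulin that is abundant in dividing cells, rose most, from a mean of 206 to 1912 normalised counts (log2FC 3.19). *Tubb4b* rose by 1.58, *Tubb6* by 1.37, *Tubb5* by 1.20 and *Map4*, a microtubule-associated protein, by 0.90, each without overlap of the groups. *Tubb2a* and *Tubb2b* were lower, with log2FC of -0.50 and -0.65. The proliferation markers *Mki67*, *Top2a* and 7 others, all higher in CNV d3, moved beside these genes, and their part in the result was not tested.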
